A study of Mus musculus with 7 samples.

Results

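Hepcidin (Hamp) and 9 other genes by which the liver senses, takes up, stores and exports iron were followed in whole mouse liver after deletion of Dicer1 in hepatocytes. The genes were chosen by name, as Hamp, Hamp2, Hfe, Hfe2 (hemojuvelin, listed on the array under its current symbol Hjv), Tfr2, Tfrc, Bmp6, Slc40a1, Trf and Cp. All 10 were measured, each by 1 probe set, among 16819 named genes. The mice were males of mixed 129S4 and C57BL/6 descent, all homozygous for the floxed Dicer1 allele (Dicer1 fl/fl), and 8 to 10 weeks old when injected with AAV8-Ttr-Cre. This adeno-associated virus (serotype 8) expresses Cre recombinase from the promoter of transthyretin (Ttr), a hepatocyte gene, so deletion is directed at hepatocytes and not at the other cells of the liver. The control group was 3 Dicer1 fl/fl livers at 0 weeks, and 2 livers each were taken at 2 and 4 weeks after the virus, in all cases after a 4 hour fast. The labels call the livers of a group biological replicates. A virus without Cre was not part of the groups, and the controls were not aged alongside, so loss of Dicer1, the vector, Cre and elapsed time cannot be told apart. Values are log2 signals of Affymetrix whole-transcript arrays, 1 array per liver, and 1 unit is a doubling. The numbers of arrays (3, 2 and 2) limit the precision.

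Hepcidin is the liver hormone that limits iron entry into blood. It binds ferroportin, the iron exporter encoded by Slc40a1, and causes its degradation. Hepatocytes make hepcidin when endothelial BMP6 activates BMP receptors with hemojuvelin as co-receptor, and when HFE and transferrin receptor 2 report loaded transferrin. Inflammation raises it through interleukin 6 and STAT3. In mice, Hfe and hemojuvelin have been reported as targets of miR-122, the abundant hepatocyte microRNA, which is matured by Dicer. Cellular iron also acts on messenger stability: iron regulatory proteins protect the Tfrc transcript when iron is scarce.

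Mice carry 2 neighbouring hepcidin genes on chromosome 7, with Hamp encoding the iron-regulating hormone. Their upstream sequences are shown because they are nearly the same, but only 1 of them holds the element core by which BMP signals are known to reach Hamp. The 250 bases before each RefSeq start site (GRCm38.p6) lie at chr7:30944030-30944279 for Hamp and chr7:30924182-30924431 for Hamp2, both read on the minus strand. Capitals mark the BMP-responsive element core (GGCGCC), the STAT site (TTCTTGGAA) and the AP-1 site (TGAGTCA), searched on both strands; none of these matches overlap.
Hamp: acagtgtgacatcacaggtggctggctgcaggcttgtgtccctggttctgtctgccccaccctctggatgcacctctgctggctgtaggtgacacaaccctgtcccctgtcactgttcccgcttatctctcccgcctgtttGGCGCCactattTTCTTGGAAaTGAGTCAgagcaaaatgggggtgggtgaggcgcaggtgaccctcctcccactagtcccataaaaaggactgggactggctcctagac
Hamp2: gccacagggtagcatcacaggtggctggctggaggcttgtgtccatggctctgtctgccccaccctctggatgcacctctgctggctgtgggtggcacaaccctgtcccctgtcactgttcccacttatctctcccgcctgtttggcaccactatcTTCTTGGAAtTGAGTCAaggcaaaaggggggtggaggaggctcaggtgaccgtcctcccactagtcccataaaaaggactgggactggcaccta
Of 247 aligned bases, 91.9% were identical. The BMP core began 109 bases before the start site of Hamp and was absent from the Hamp2 window, where it is interrupted by the substitution G145A (Hamp base, position counted from the 5′ end of the printed Hamp window, Hamp2 base). The STAT and AP-1 letters were in both. Of 32851 promoter windows of the same length, 9.59% held the BMP core, 0.365% the STAT letters and 4.46% the AP-1 letters. Upstream windows were found for 7 of the 10 genes (Hamp, Hamp2, Hfe, Tfr2, Tfrc, Bmp6 and Cp). Besides those shown, 1 Tfrc window held the BMP core and the Hfe window held the AP-1 letters. These matches are letters in a window and no measure of binding.

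The targeted gene was lower after the virus: Dicer1 read 8.73, 8.71 and 8.58 in control, 8.03 and 7.79 at 2 weeks, then 7.97 and 8.05 at 4 weeks, a fall of log2 -0.76 (SE 0.09, adjusted p = 0.0158, limma) and -0.66 (SE 0.09, adjusted p = 0.0159). The Dicer1 values kept their sign, and the 2 week call was lost without control replicate 1, 2 or 3 (adjusted p = 0.0622, 0.0731 and 0.0621, limma), without 2 week replicate 2 (0.05 after rounding) and without 4 week replicate 1 or 2 (0.0511 in both). The 4 week call was lost without control replicate 1, 2 or 3 (0.0589, 0.0673 and 0.0521) and without 4 week replicate 1 or 2 (0.091 and 0.0806). The exons that the Dicer1 probes cover are unknown here, so this check of the labels is limited. Hepatocyte markers were high in every liver, with a summed log2 signal of 17.14 to 17.17 in control and 17.10 to 17.12 after Cre over 8 genes, of which 0 passed at either time by limma (1 higher and 1 lower at an unadjusted p under 0.05 at each). On the first principal component over all genes (62% of the variance), 2 week replicate 1 lay at 6.56, nearer to the controls (-23.8 to -22.4) than the other 3 arrays after Cre (18.4 to 24.3). The summed signal of stellate cell markers lay above all controls on all 4 arrays after Cre, as Hjv, Slc40a1, Trf and Cp did. It was 12.11 to 12.13 in control and 12.23 to 12.31 after Cre. Singly, only Pdgfrb, named after its values were seen, lay above all controls on these arrays, and the other stellate markers overlapped. Of 10 stellate markers, 0 passed at either time by limma (3 higher at an unadjusted p under 0.05 at 2 weeks and 1 at 4 weeks). For the mean of both times, 1 of the 10 passed as higher (10.0%, beside 12.9% of all genes). That marker was Pdgfrb (log2 0.31, adjusted p = 0.0238, limma). The summed signal of 4 bile duct markers also lay above all controls, at 8.80 to 8.92 in control and 8.95 to 9.12 after Cre. Of these 4, only Sox9, named after its values were seen, did so singly, and the other bile duct markers overlapped. Sox9 rose at 4 weeks (log2 0.43, adjusted p = 0.0401, limma) and for the mean of both times (log2 0.37, adjusted p = 0.0298). The part of these cells in the iron gene values was not tested. Lymphocyte markers overlapped, at 8.62 to 8.72 and 8.68 to 8.73. In bulk liver, fewer cells of a type and less RNA per cell cannot be told apart.

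At 2 weeks, 2 of the 10 iron genes rose (Hjv and Cp) and 0 fell, by limma with adjustment over all 16819 genes and an adjusted p under 0.05. Of all genes, 5.93% were called in that comparison, 3.46% as higher and 2.47% as lower. At 4 weeks, 4 rose (Hjv, Slc40a1, Cp and Trf) and 0 fell, where 9.77% of all genes were called, 5.15% as higher and 4.62% as lower. At an unadjusted p under 0.05, 4 of the 10 were higher and 0 lower at 2 weeks, and 5 were higher and 2 lower (Tfr2 and Tfrc) at 4 weeks. The median log2 fold change of the 10 genes was 0.12 and 0.29, beside 0.00 and 0.01 for all genes. For the mean of both times after Cre, 4 rose (the same genes as at 4 weeks) and 0 fell, where 12.9% of all genes were called, 6.79% as higher and 6.12% as lower. Both times are set against the same 3 controls, so they are not independent of each other. The counts changed when an array was left out, and so did the share of all genes called. Without control replicate 1, 2 or 3, that share was 1.13%, 0.755% and 0.244% at 2 weeks. It was 2.72%, 1.86% and 1.75% at 4 weeks, and 5.08%, 3.39% and 3.41% after Cre. The counts of iron genes were then 1, 1 and 0 at 2 weeks, 1 in each case at 4 weeks, and 1, 1 and 2 after Cre. Without 2 week replicate 1 or 2, they were 4 and 0 at 2 weeks. Without 4 week replicate 1 or 2, they were 1 and 1 at 2 weeks, 0 and 0 at 4 weeks, and 1 and 2 after Cre. Leaving out an array at 2 or 4 weeks leaves 1 array at that time, which the fit then assumes to vary like the other groups. A single array adds no spread. So for 2 weeks against control, leaving out either 4 week replicate gives the same test as a fit of those 2 groups alone.

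Counting genes whose arrays did not overlap with the controls, 5 of the 10 lay higher and 1 lower at 2 weeks, where 34.9% of all genes did not overlap (17.3% higher, 17.5% lower). At 4 weeks 5 lay higher and 2 lower, where 39.8% of all genes did not overlap (21.6% higher, 18.2% lower). With both times joined, 4 lay higher and 1 lower, where 25.1% of all genes did not overlap (12.9% higher, 12.2% lower).

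**Figure D1:**
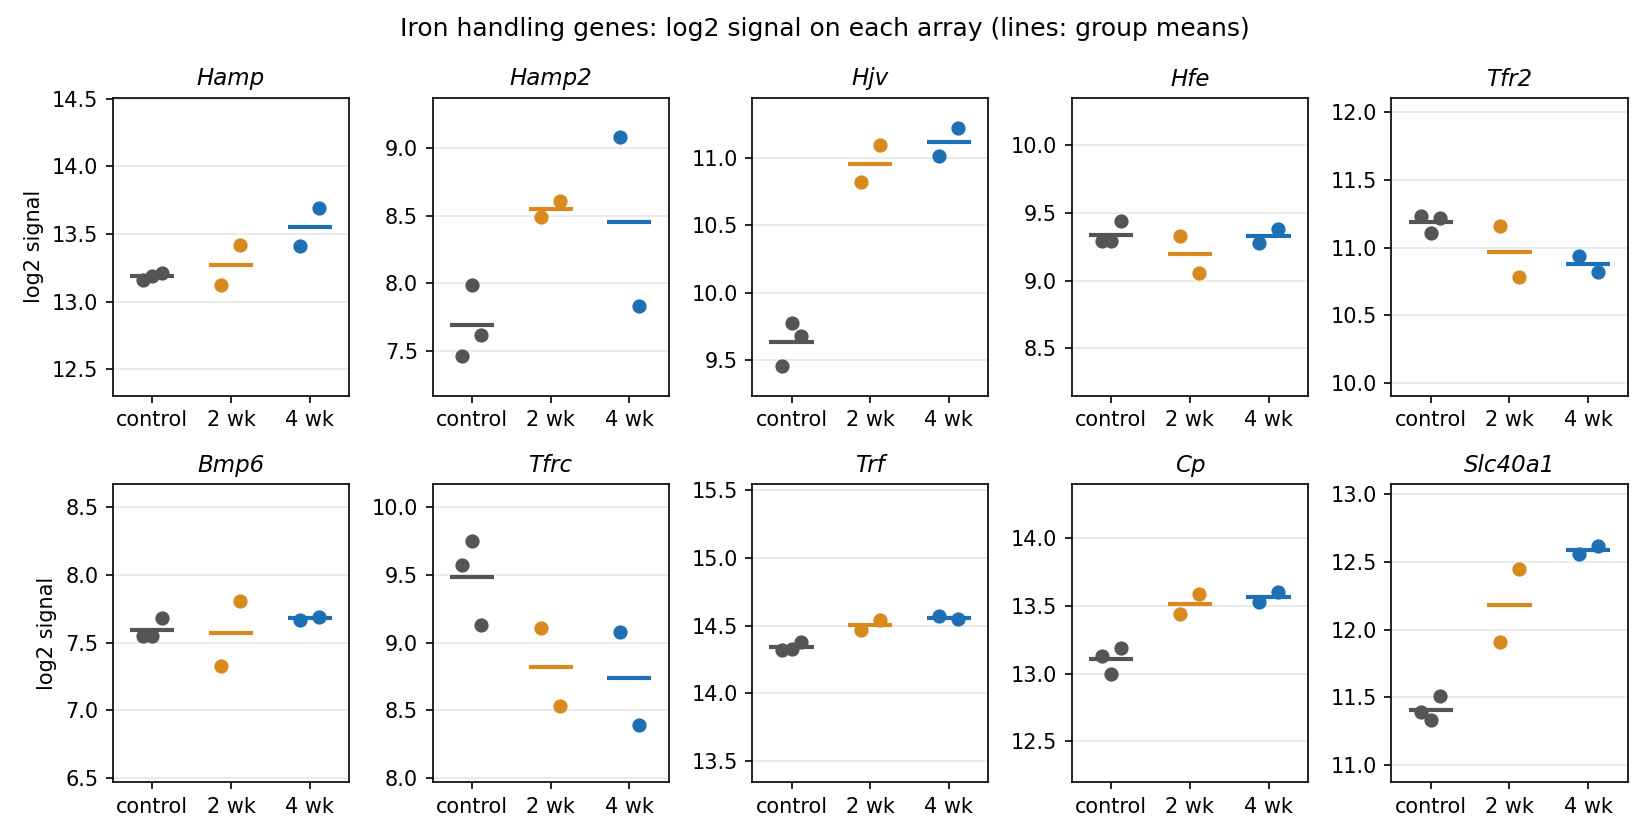
Log2 signal (vertical axis, of equal height in each panel) of the 10 iron handling genes on the 3 control, 2 two-week and 2 four-week arrays. Points are arrays and lines are group means. All 4 arrays after Cre lie above all controls for Hjv, Slc40a1, Trf and Cp, and below them for Tfrc.

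Hemojuvelin had the largest change of the 10. Hjv, the BMP co-receptor on the hepatocyte surface, read 9.46, 9.78 and 9.68 in the control livers. It read 10.82 and 11.09 at 2 weeks, then 11.01 and 11.22 at 4 weeks. Every array after Cre was more than 1 log2 unit above the highest control. The rise was 2.49-fold at 2 weeks (log2 1.32 ± 0.13 SE, limma adjusted p = 0.0126, n = 3 and 2) and 2.78-fold at 4 weeks (log2 1.47, SE 0.13, adjusted p = 0.00866). Of all 16819 genes, 99.3% had a smaller absolute log2 fold change at either time. The times differed by 0.16 (95% interval -0.20 to 0.52, adjusted p = 0.832). The fold stayed near this size when an array was left out, though the call did not always hold. Without control replicate 3 or 2 week replicate 2, the 2 week adjusted p was 0.0655 and 0.0573 (log2 1.34 and 1.18). Without 4 week replicate 1 or 2, that at 4 weeks was 0.0585 and 0.0626 (log2 1.58 and 1.37).

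Hfe, which like hemojuvelin has been named as a miR-122 target, did not pass at either time. HFE is an MHC class I-like protein that can bind both transferrin receptors. Its arrays read 9.29, 9.29 and 9.44 in control, 9.33 and 9.06 at 2 weeks, then 9.28 and 9.38 at 4 weeks, so the groups overlapped. The log2 fold change was -0.14 at 2 weeks (95% interval -0.39 to 0.10, adjusted p = 0.443, limma) and -0.02 at 4 weeks (-0.26 to 0.23, adjusted p = 0.957). At 4 weeks the sign of the Hfe value turned without control replicate 3 or 4 week replicate 1 (0.03 in both).

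Tfr2, the hepatocyte sensor of iron-loaded transferrin, read 11.23, 11.11 and 11.22 in control and 11.16 and 10.78 at 2 weeks. Its 4 week arrays, 10.94 and 10.82, were both below all controls. The log2 fold change was -0.22 (SE 0.12, adjusted p = 0.352, limma) and -0.30 (SE 0.12, adjusted p = 0.191), short of the threshold at both times. The 2 week arrays differed from each other, and without replicate 1 the value at 2 weeks was -0.41, with an adjusted p of 0.0438 that rests on 1 array at 2 weeks and the spread of the other groups.

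Bmp6, the ligand that liver sinusoidal endothelial cells supply to hepatocytes, passed at neither time. It read 7.55, 7.55 and 7.68 in control, 7.33 and 7.81 at 2 weeks, then 7.67 and 7.69 at 4 weeks. The log2 fold change was -0.03 (95% interval -0.38 to 0.32) and 0.08 (-0.27 to 0.44), with adjusted p-values of 0.937 and 0.778 (limma). The 2 week value was 0.22 without 2 week replicate 1 and 0.015 without control replicate 3. That replicate 1 had the lowest Bmp6 signal and also the lowest summed signal of 10 endothelial markers, 12.61, against 12.80 to 12.84 in control, 12.91 on the other 2 week array and 12.97 and 13.15 at 4 weeks. Of these markers, 0 passed at 2 weeks by limma (1 lower at an unadjusted p under 0.05) and 1 rose at 4 weeks. Their part in the Bmp6 values was not tested.

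Hepcidin itself passed the test at neither time. Hamp read 13.16, 13.19 and 13.21 in control, 13.12 and 13.42 at 2 weeks, then 13.41 and 13.69 at 4 weeks. The 3 controls lay within 0.05 of each other, the 2 week arrays fell on either side of them, and both 4 week arrays were above. The log2 fold change was 0.08 at 2 weeks (95% interval -0.21 to 0.37, adjusted p = 0.73, limma) and 0.36 at 4 weeks (0.07 to 0.65, adjusted p = 0.122), so neither passed after adjustment. Without 2 week replicate 2, the 2 week value was -0.07. The difference of 0.28 between the times had an adjusted p of 0.714.

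Hamp2, the neighbouring copy, read 7.46, 7.99 and 7.62 in control and 8.49 and 8.61 at 2 weeks. At 4 weeks its arrays parted, at 9.08 and 7.83, the first above and the second within the control range. The log2 fold change was 0.86 at 2 weeks (SE 0.37, adjusted p = 0.245, limma) and 0.77 at 4 weeks (SE 0.37, adjusted p = 0.281). Without 4 week replicate 1 or 2, the 4 week value was 0.14 or 1.39, and with replicate 2 left out the contrast after Cre passed (log2 1.13, adjusted p = 0.0436). Over the 7 arrays the values of Hamp and Hamp2 had a Pearson r of 0.18, a description over arrays that share controls. The arrays that were highest for Hamp and for Hamp2 were the 2 different 4 week livers. Whether probes of either gene also detect the other was not examined, so how far each signal belongs to its own gene is uncertain.

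Export and transport genes were the others that rose. Slc40a1 encodes ferroportin, the cellular iron exporter of hepatocytes and Kupffer cells. It read 11.39, 11.33 and 11.51 in control, 11.91 and 12.45 at 2 weeks, then 12.56 and 12.62 at 4 weeks. The 4 arrays after Cre were above all controls, and both 4 week arrays above both 2 week arrays. The rise at 4 weeks was 2.27-fold (log2 1.18 ± 0.16 SE, limma adjusted p = 0.0168, n = 3 and 2). At 2 weeks the value was 0.77 (SE 0.16), with an adjusted p of 0.0534 that misses the threshold. The 4 against 2 week difference was 0.41 (95% interval -0.02 to 0.85, adjusted p = 0.693).

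The 2 week call for Slc40a1 rested on small choices. It passed after quantile normalization, median centring, removal of the dimmest genes or a trended variance (adjusted p = 0.0467, 0.0413, 0.0372 and 0.0468, limma). Without 2 week replicate 1 or 2, the log2 value was 1.04 or 0.50 (adjusted p = 0.0116 and 0.0722, each from 1 array at 2 weeks with the spread of the other groups). At 4 weeks the call was lost without control replicate 1, 2 or 3 (adjusted p = 0.063, 0.0677 and 0.0631) and without 4 week replicate 1 or 2 (0.0914 and 0.1), while the log2 value stayed between 1.14 and 1.23. Kupffer cell and macrophage markers, which share cells with Slc40a1, had a summed signal of 11.90 to 12.17 in control and 11.85 to 12.29 after Cre, and 0 of 10 passed at either time by limma (0 at an unadjusted p under 0.05). The 10 log2 fold changes ran from -0.13 to 0.31 at 2 weeks (median 0.02) and from -0.19 to 0.17 at 4 weeks (median 0.02).

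Ceruloplasmin and transferrin, secreted plasma proteins of iron transport, rose by small amounts. Cp encodes the copper ferroxidase that oxidises exported iron for loading onto transferrin. It read 13.13, 13.00 and 13.19 in control, 13.44 and 13.59 at 2 weeks, then 13.53 and 13.60 at 4 weeks, with no overlap. The rise was 1.33-fold at 2 weeks (log2 0.41, SE 0.08, adjusted p = 0.0451, limma) and 1.38-fold at 4 weeks (log2 0.46, SE 0.08, adjusted p = 0.0258).

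Trf encodes transferrin, the iron carrier of plasma. It read 14.32, 14.33 and 14.38 in control, 14.47 and 14.54 at 2 weeks, then 14.57 and 14.55 at 4 weeks. The groups did not overlap, and the fold at 4 weeks was 1.16 (log2 0.21, SE 0.05, adjusted p = 0.0426, limma). At 2 weeks the value was 0.16 (SE 0.05, adjusted p = 0.108). Among the 10 genes at 2 and 4 weeks, the Trf value at 4 weeks was the smallest change that passed. The Trf call at 4 weeks was lost after median centring (adjusted p = 0.0513).

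Leaving out single arrays ended the Cp and Trf calls while their log2 values moved little. For Cp at 2 weeks, the adjusted p was 0.114, 0.114 and 0.102 without control replicate 1, 2 or 3, 0.14 without 2 week replicate 2, and 0.0974 without either 4 week replicate and in a fit of the 2 groups alone. At 4 weeks it was 0.0773, 0.0716 and 0.0669 without a control, and 0.103 and 0.131 without 4 week replicate 1 or 2. For Trf at 4 weeks the same 5 omissions gave 0.107, 0.124, 0.0869, 0.146 and 0.127.

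Tfrc, transferrin receptor 1, had the lowest log2 fold change of the 10 at both times, without passing. It takes iron-loaded transferrin into cells and is abundant in erythroid precursors. Its arrays read 9.57, 9.75 and 9.13 in control, 9.11 and 8.53 at 2 weeks, then 9.08 and 8.39 at 4 weeks. All 4 arrays after Cre were below the lowest control, replicate 3, but the highest of them barely so. The log2 fold change was -0.66 at 2 weeks (SE 0.30, adjusted p = 0.271, limma) and -0.75 at 4 weeks (SE 0.30, adjusted p = 0.201). Without 2 week replicate 1 or 2 the 2 week value was -0.95 or -0.37, and without 4 week replicate 1 or 2 the 4 week value was -1.10 or -0.40.

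At each time the array with the lower Tfrc signal also had the lower signal of Alas2, the brightest of 3 measured red cell markers. Alas2, the erythroid enzyme that starts heme synthesis, is named here after its values were seen. It read 10.81, 10.85 and 10.82 in control. The arrays after Cre read 11.04 and 10.59 at 2 weeks, then 11.16 and 10.49 at 4 weeks. The other markers did not all follow: Slc4a1 read 6.85 and 6.83 at 2 weeks, then 6.85 and 6.89 at 4 weeks. Epb42 read 5.91 and 5.65, then 5.79 and 5.79. The summed signal of Alas2, Slc4a1 and Epb42 was 10.94 to 10.98 in control, 11.15 and 10.73 at 2 weeks, then 11.26 and 10.66 at 4 weeks, and 0 of the 3 passed at either time by limma (0 at an unadjusted p under 0.05). The arrays with the higher summed signal, 2 week replicate 1 and 4 week replicate 1, read 9.11 and 9.08 for Tfrc, beside 9.13 in the lowest control. The part of red cell RNA in the Tfrc values was not tested.

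**Figure D2:**
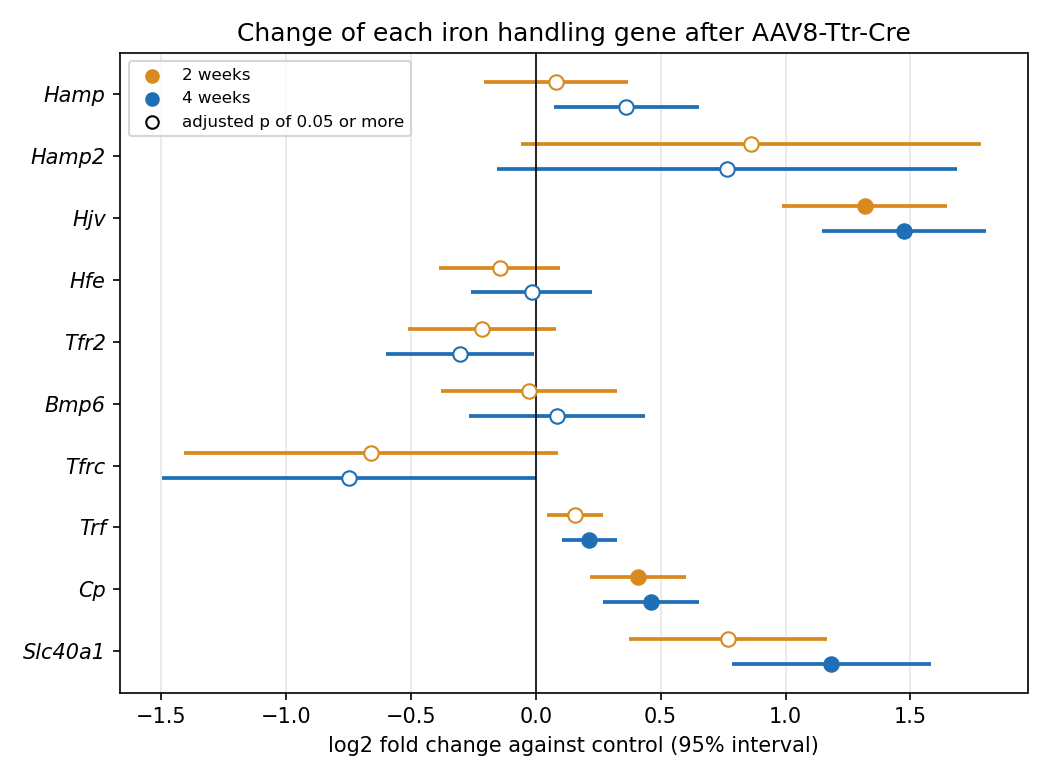
Log2 fold change against control (horizontal axis) of the 10 iron handling genes at 2 weeks (orange) and 4 weeks (blue), with 95% intervals from limma as lines. Filled points have an adjusted p under 0.05: Hjv and Cp at both times, Slc40a1 and Trf at 4 weeks.

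Between 4 and 2 weeks, 0 of the 10 genes passed by limma, and 0 had an unadjusted p under 0.05; of all genes, 0.00595% were called (1 gene, higher) and 1250 had an unadjusted p under 0.05. Arrays of the 2 times did not overlap for 2 of the 10, Slc40a1 and Trf, both higher at 4 weeks, where 26.6% of all genes did not overlap (15.0% higher, 11.6% lower). The log2 differences ran from -0.09 (Hamp2) to 0.41 (Slc40a1). A p that misses the threshold with 2 arrays a side does not show equal levels.

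Genes whose values over the 7 arrays were most like those of the iron genes were sought among the 1015 genes with a range of at least 1 log2 unit, by Pearson r, as a description. Hjv was most like Sh3pxd2a (0.997), Zmiz1 (0.996) and Spon2 (0.992). Slc40a1 was most like Tm4sf4 (0.995), Tspyl1 (0.991) and Hpgd (0.991), and Trf most like Hpgd (0.993), Purb (0.992) and Sgpl1 (0.988). Cp was most like Slc6a13 (0.991), Tmem87a (0.989) and Fgfr2 (0.988). For Hamp the highest values were lower, at 0.937 (Fmo4), 0.935 (Nol4l) and 0.929 (Bmf). Slc40a1 itself had an r of 0.984 with Trf, 0.962 with Cp and 0.946 with Hjv. All come from the same 7 arrays in 3 groups, so 2 genes that differ clearly between control and Cre in the same direction give a high r.

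The other genes of the pathway, 107 measured of 116 listed in 7 groups, held 8 that rose and 5 that fell at 2 weeks (12.1%, beside 5.93% of all genes) and 9 and 9 at 4 weeks (16.8%, beside 9.77%). Their median log2 fold change was -0.01 and 0.00. These counts changed with the arrays used, as did the share of all genes called. Without control replicate 1, 2 or 3, the calls numbered 2, 1 and 1 at 2 weeks, where 1.13%, 0.755% and 0.244% of all genes were called. At 4 weeks they numbered 5, 5 and 4, where 2.72%, 1.86% and 1.75% of all genes were called. Without 2 week replicate 1 or 2, they numbered 31 and 5 at 2 weeks and 26 and 26 at 4 weeks. Without 4 week replicate 1 or 2, in both cases, they numbered 6 at 2 weeks and 0 at 4 weeks.

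For the mean of both times after Cre, 15 genes of the wider lists rose and 13 fell (26.2%, beside 12.9% of all genes). Of these 28, 8 had passed at neither single time, namely Abcg2, Aco1, Glrx5, Hgf, Jak1, Lcn2, Slc25a28 and Slc39a8. Lcn2, named after its values were seen, encodes lipocalin 2, a secreted protein that binds iron-carrying siderophores. It read 9.32, 9.83 and 9.48 in control, 10.82 and 12.48 at 2 weeks, then 10.77 and 11.57 at 4 weeks. All arrays after Cre were above the controls, and the rise after Cre was 3.65-fold (log2 1.87, SE 0.43, adjusted p = 0.046, limma). It was at 2.11 at 2 weeks (adjusted p = 0.0757) and 1.63 at 4 weeks (adjusted p = 0.119). The call after Cre was lost without control replicate 1, 2 or 3 (adjusted p = 0.151, 0.12 and 0.155), without 2 week replicate 2 (0.0524) and without 4 week replicate 1 or 2 (0.0963 and 0.145). The wider count after Cre was 11, 8 and 9 without control replicate 1, 2 or 3, 36 and 21 without 2 week replicate 1 or 2, and 11 and 10 without 4 week replicate 1 or 2.

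**Figure D3:**
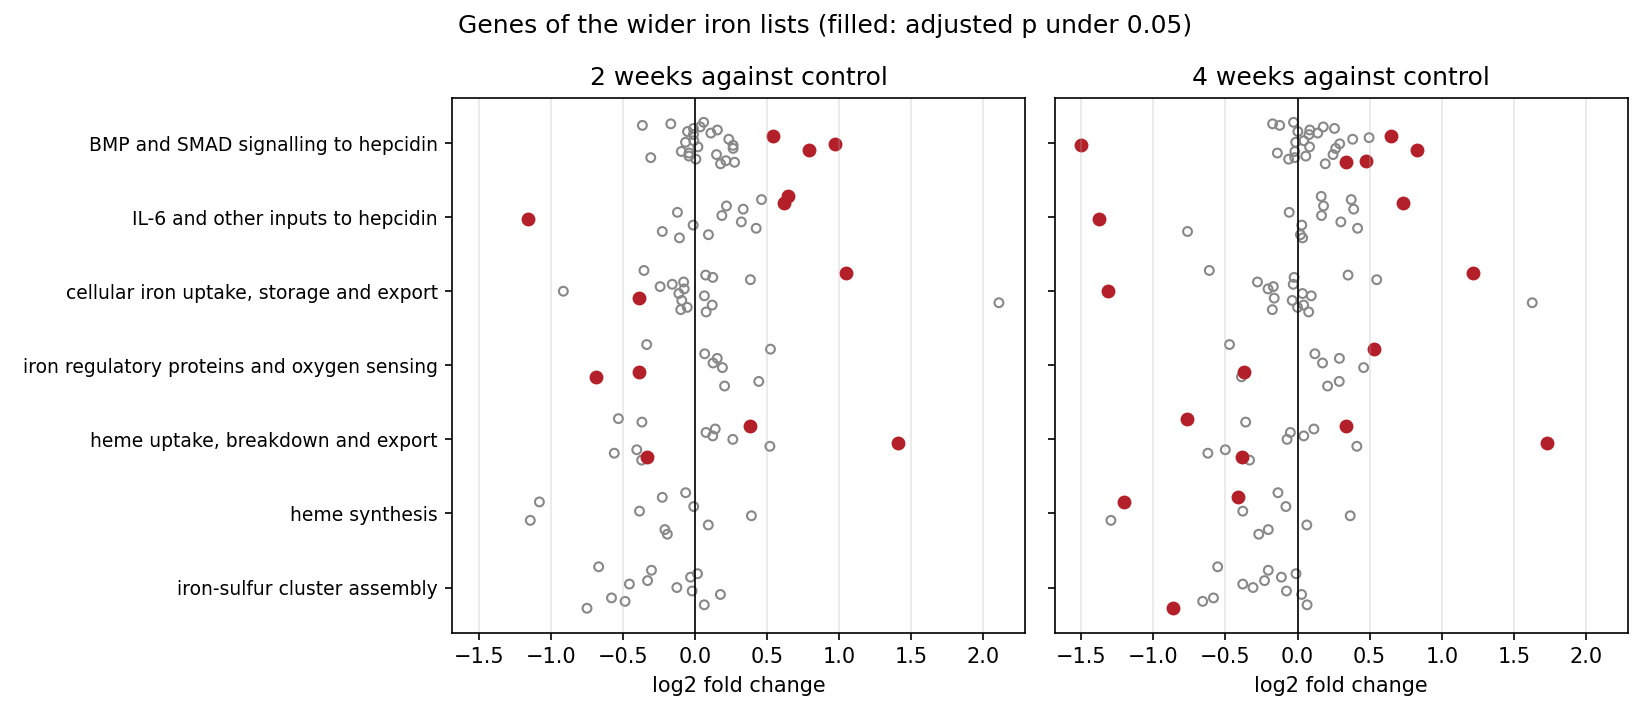
Log2 fold change (horizontal axis) of each measured gene in 7 lists of iron pathway genes (rows), at 2 weeks (left) and 4 weeks (right) against control. Filled points have an adjusted p under 0.05, numbering 13 at 2 weeks and 18 at 4 weeks; open points do not.

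In BMP signalling to hepcidin, 3 of 28 genes rose and 0 fell at 2 weeks (10.7%, beside 5.93% of all genes). At 4 weeks 4 rose and 1 fell (17.9%, beside 9.77%). At an unadjusted p under 0.05 (limma), 8 were higher and 1 lower at 2 weeks, and 9 higher and 2 lower at 4 weeks. Of all 16819 genes, 1988 were then higher and 1874 lower at 2 weeks, and 2173 and 1996 at 4 weeks. Bmpr1a and Neo1 rose at both times. Bmpr1a, a type I BMP receptor of hepatocytes, read 9.03, 9.12 and 9.18 in control against 9.68 and 10.13 at 2 weeks, then 9.90 and 9.97 at 4 weeks. It rose 1.73-fold (log2 0.79, SE 0.13, adjusted p = 0.0349, limma) and 1.78-fold (log2 0.83, SE 0.13, adjusted p = 0.0235). Neo1, the hemojuvelin-binding receptor neogenin, rose 1.45-fold (adjusted p = 0.0228) and 1.56-fold (adjusted p = 0.0117).

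Of the antagonists and feedback genes, Fst, the activin-binding follistatin, rose 1.96-fold at 2 weeks (adjusted p = 0.00789, limma), and was at 0.29 at 4 weeks (adjusted p = 0.0869). Acvr2a, a type II receptor, rose 1.26-fold at 4 weeks (adjusted p = 0.0337). Atoh8, a BMP-responsive transcription factor named here after its values were seen, was the fourth to rise at 4 weeks (log2 0.47, adjusted p = 0.0432). The BMP response genes Id1, Id3, Smad6 and Smad7, also chosen after their values were seen, did not pass. Id1 was at -0.01 and 0.04, Smad6 at -0.01 and 0.26, and Smad7 at 0.04 and 0.18 at the 2 times. Id3 was at 0.54 and 0.50 (adjusted p = 0.192 and 0.21, limma). At an unadjusted p under 0.05, Id3 was higher at 2 weeks and Smad6 at 4 weeks. Fgl1, a secreted hepatocyte protein described as a BMP antagonist, was at 0.26 at 2 weeks and fell 2.83-fold at 4 weeks (adjusted p = 0.0261); its 4 against 2 week difference of -1.77 had an adjusted p of 0.305. Tmprss6, the protease that cuts hemojuvelin from the cell surface, was at -0.17 at both times (adjusted p = 0.155 and 0.13), and Id2 was at 0.38 at 4 weeks (adjusted p = 0.351).

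Among 14 measured genes of interleukin 6 and other inputs, 2 rose and 1 fell at 2 weeks (21.4%, beside 5.93% of all genes). At 4 weeks 1 rose and 1 fell (14.3%, beside 9.77%). Il6ra, the interleukin 6 receptor chain, read 10.48, 10.39 and 10.50 in control. It fell to 9.49 and 9.10 at 2 weeks and to 9.15 and 9.01 at 4 weeks, that is 2.23-fold (adjusted p = 0.0134, limma) and 2.60-fold (adjusted p = 0.00851). Stat3, which carries that signal to the Hamp promoter, rose 1.56-fold at 2 weeks (adjusted p = 0.0129) and was at 0.16 at 4 weeks (adjusted p = 0.201). Met, the receptor of hepatocyte growth factor, rose 1.54-fold (adjusted p = 0.0139) and 1.66-fold (adjusted p = 0.00867). Egfr was at -0.23 and -0.76 and Hnf4a at -0.01 and 0.03, all short of the threshold.

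Of 19 measured genes of cellular uptake, storage and export, 1 rose and 1 fell at each time (10.5%, beside 5.93% and 9.77% of all genes). Steap3, the ferrireductase that readies transferrin-delivered iron for transport, read 8.32, 8.25 and 8.39 in control. It rose to 9.21 and 9.53 at 2 weeks, then to 9.40 and 9.68 at 4 weeks, 2.07-fold (adjusted p = 0.0175, limma) and 2.33-fold (adjusted p = 0.00963). Mcoln1, a lysosomal cation channel that can pass iron, fell 1.31-fold at 2 weeks (adjusted p = 0.0464). Scara5, a ferritin receptor, fell 2.48-fold at 4 weeks (adjusted p = 0.0307). Fth1, the heavy chain of the storage protein ferritin, was at -0.10 and -0.17 (adjusted p = 0.467 and 0.205), and the iron chaperone gene Pcbp2 at -0.11 and 0.03.

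Of 10 genes of iron and oxygen sensing, 0 rose and 2 fell at 2 weeks (3 higher and 3 lower at an unadjusted p under 0.05, limma). At 4 weeks 1 rose and 1 fell. The calls were 20.0% of the list at both times, beside 5.93% and 9.77% of all genes. Egln2 and Egln1 encode iron-dependent prolyl hydroxylases that mark hypoxia-inducible factors. Egln2 fell 1.31-fold at 2 weeks and 1.29-fold at 4 weeks (adjusted p = 0.0296 and 0.0246, limma), and Egln1 1.61-fold at 2 weeks (adjusted p = 0.0331). Ireb2, iron regulatory protein 2, rose 1.44-fold at 4 weeks (adjusted p = 0.0419), with 0.52 at 2 weeks (adjusted p = 0.0546). Aco1, iron regulatory protein 1, was at 0.21 at both times (adjusted p = 0.0967 and 0.0794), and Epas1 at 0.17 at 4 weeks (adjusted p = 0.172).

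Of 13 genes of heme uptake, breakdown and export, 2 rose and 1 fell at 2 weeks (23.1%, beside 5.93% of all genes). At 4 weeks 2 rose and 2 fell (30.8%, beside 9.77%). Flvcr2, a transporter first described for heme, read 6.77, 6.53 and 6.55 in control, 7.71 and 8.34 at 2 weeks, then 8.51 and 8.17 at 4 weeks. It rose 2.65-fold (adjusted p = 0.0265, limma) and 3.31-fold (adjusted p = 0.0134). Lrp1, the receptor that clears hemopexin with its heme, rose 1.30-fold and 1.26-fold (adjusted p = 0.0233 and 0.0224). Blvra, which reduces biliverdin, fell 1.26-fold and 1.30-fold (adjusted p = 0.0389 and 0.0211), and Slc48a1, a heme transporter of lysosomes, fell 1.70-fold at 4 weeks (adjusted p = 0.0463). The plasma scavengers of heme and hemoglobin did not pass: Hpx was at 0.14 and 0.11, and Hp at 0.08 and -0.05.

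In heme synthesis 0 of 10 measured genes passed at 2 weeks by limma, where 5.93% of all genes did. At an unadjusted p under 0.05, 1 was higher and 3 lower at 2 weeks. At 4 weeks 2 fell (20.0%, beside 9.77% of all genes). These were Tmem14c, which moves porphyrin within mitochondria, at 2.31-fold lower (adjusted p = 0.0367, limma), and the decarboxylase Urod, at 1.33-fold lower (adjusted p = 0.0443). Alas1, the first enzyme of the pathway in hepatocytes, was the most uneven, at 12.65, 12.48 and 12.69 in control, 10.56 and 12.36 at 2 weeks, then 10.66 and 11.96 at 4 weeks. All 4 arrays after Cre were below the controls, but 1 array at each time carried most of the difference, and the log2 fold change of -1.14 and -1.29 had adjusted p-values of 0.334 and 0.265. Alad was at 0.09 and 0.06.

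In iron-sulfur cluster assembly 0 of 13 measured genes passed at 2 weeks by limma, where 5.93% of all genes did. At an unadjusted p under 0.05, 5 were lower at 2 weeks. At 4 weeks 1 fell (7.69%, beside 9.77% of all genes). That gene was Bola3, an assembly factor of mitochondria, at 1.82-fold lower (adjusted p = 0.0338, limma). Glrx5, a glutaredoxin of the same pathway, was at -0.58 at both times (adjusted p = 0.0684 and 0.055), and the chaperone gene Hspa9 at -0.02 and -0.08. The median of this list was -0.30 at 2 weeks and -0.23 at 4 weeks, beside 0.00 and 0.01 for all genes.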

How the data were processed

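Each array came with 1 log2 signal per probe set, as deposited by the authors. The submitters' processing notes name GCOS 1.4 without saying what it did. How probes were summarised and normalised is not stated in the labels. Of 21093 probe sets, 17709 had 1 gene symbol, 187 several and 3197 were unnamed. The probe set with the highest mean stood for each of 16819 genes. All 7 arrays entered 1 limma fit (version 3.58.1, R 4.3.3) with 3 group means, 4 residual and 1.69 prior degrees of freedom. Tests were two-sided, adjusted by Benjamini-Hochberg over all genes, with changed meaning an adjusted p under 0.05. No detection call or scan date came with the values. Named were the 10 genes, Dicer1, and in each wider list up to 4 passing genes, taken by adjusted p, and up to 2 others, taken by mean level, plus genes said to be chosen after their values were seen. Members and lists were chosen with earlier results of these data known. The fit was tested on simulated data. Promoters came from RefSeq (GRCm38.p6) and were aligned with Biopython (version 1.88). Alternatives were other normalizations, a filter on dim genes, 2-group fits, another variance model, mean probe sets, the replicate block and leaving out each array.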

Additional observations from a re-analysis of the deposited data

How the results depend on the processing

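The iron gene values that had passed kept their signs under every alternative run. Their calls changed, as did the share of all genes called. Quantile normalization, median centring, leaving out the dimmest 25% of genes, the trended and robust variance model and the mean of probe sets gave 2 or 3 called iron genes at 2 weeks, 3 or 4 at 4 weeks, 4 after Cre and 0 between the times. The fit of the 2 groups alone gave 1 iron gene and 6 genes of the wider lists at 2 weeks. Leaving out 1 array at a time, called iron genes ranged from 0 to 4 at 2 weeks, 0 to 4 at 4 weeks and 1 to 5 after Cre, and called genes of the wider lists from 1 to 31 at 2 weeks and 0 to 26 at 4 weeks. For the wider lists after Cre, whose alternatives were chosen after seeing the data, the count ranged from 8 to 36. The call of Lcn2 after Cre, also tried after seeing the data, was lost when any control, 2 week replicate 2 or either 4 week array was left out.

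The labels number the arrays within groups and do not say whether equal numbers mark a pair. Deviations of same-numbered arrays from their group means correlated at -0.07 to 0.11 over 6 pairs, with 2 over 0.1. Not every array correlated best with its own number. In a group of 2 arrays the deviations mirror each other, so these values are not independent and cannot show whether arrays were paired. With the number as a replicate block, 0 iron genes passed by limma at 2 weeks, 4 weeks or after Cre (5, 7 and 7 of 10 at an unadjusted p under 0.05). Of the 107 genes of the wider lists, 0 passed in each of these comparisons (36, 47 and 45 unadjusted). Of all 16819 genes, 0, 2 and 5 passed with the block, so these counts are not particular to the iron genes. Only the control group has a replicate 3, so the block fits that array exactly. The block also ended the Dicer1 call at 2 and 4 weeks (adjusted p = 0.119 and 0.0912) and that of Lcn2 after Cre (0.0841). The block turned the sign of Bmp6 at 2 weeks (0.015) and Hfe at 4 weeks (0.033), and quantile normalization that of Hspa9 at 2 weeks (0.007).

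The other signs that turned belonged to values that had not passed and turned when 1 array was left out. At 2 weeks the log2 fold change then ranged from -0.068 to 0.229 for Hamp, -0.271 to 0.215 for Bmp6, -0.164 to 0.691 for Fgl1, -0.041 to 0.016 for Hnf4a, -0.204 to 0.006 for Fth1 and -0.129 to 0.313 for Alad. At 4 weeks it ranged from -0.066 to 0.034 for Hfe, -0.012 to 0.08 for Pcbp2, -0.162 to 0.063 for Hp and -0.321 to 0.449 for Alad. Between 4 and 2 weeks it ranged from -0.717 to 0.53 for Hamp2, -0.009 to 0.264 for Hfe, -0.28 to 0.104 for Tfr2, -0.438 to 0.256 for Tfrc, -0.13 to 0.355 for Bmp6, -0.027 to 0.13 for Cp and -0.018 to 0.214 for Dicer1. After Cre it ranged from -0.093 to 0.149 for Bmp6. The cause was not tested, beyond the fewer arrays in each such fit. Groups of 2 and 3 arrays limit every comparison, and no background or detection call came with the signals.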
